A study of Sus scrofa with 22 samples.

Results

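Solute carriers are membrane proteins that move sugars, amino acids, peptides, vitamins, ions, metals and fatty acids across the plasma membrane or between compartments of a cell. The genes described here are those of the array whose pig gene symbol starts with SLC and a digit, without SLC3A1 and SLC10A2, and each is represented by its brightest probe. Of 78 such genes with a probe, 67 had a Cy5 signal well above background on at least 5 arrays and were tested, among 24760 genes tested in all. The other 11 were SLC1A3, SLC7A3, SLC15A2, SLC17A1, SLC22A8, SLC25A25, SLC26A4, SLC26A5, SLC30A2, SLC34A1 and SLC34A2, whose probes passed on 0 to 3 arrays. SLC15A2 has a dimmer probe that passed on more arrays; it was counted by its brightest one. SLC9A3R1 and SLC9A3R2 are scaffold proteins that bind carriers and came in by their names alone. Of 37 carriers that are classically described in intestine, 16 were measured, so genes such as SLC2A5, SLC6A19 and SLC40A1 are not described here.

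RNA came from the small intestine of 22 crossbred specific-pathogen-free piglets (Large White × Danish Landrace), 3 days old per the labels, which had suckled before they entered the study. The tissue comes from a pair of toxicity experiments. In one, 6 piglets received a single intravenous dose of doxorubicin (DOX), an inhibitor of topoisomerase II, and 6 stayed untreated. In the other, 5 received the alkylating agents busulfan and cyclophosphamide (BUCY) intravenously and 5 stayed untreated. Before treatment, piglets were anesthetized and fitted with an orogastric tube and a jugular catheter. Which intestinal segment was taken, when, and after what drug dose is not given in the sources used here. Each piglet had 1 array, so the spread within a group is that between animals, and piglets are named below by their group and number. Values below are log2 ratios, Cy5 signal of the piglet over Cy3 signal of a pool of all samples. A value of 0 therefore means the level of the pool, and values of different genes are not compared as amounts.

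Absorption of food in the small intestine is the work of enterocytes on the villi. Their apical brush border carries sodium- or proton-coupled carriers that concentrate nutrients, and their basolateral membrane carries facilitated carriers and exchangers that pass them to the blood. Dividing crypt cells, immune cells and muscle use other members, among them importers of cationic amino acids and glutamine. In tissue of mixed cells, fewer cells of a type and less RNA per cell cannot be told apart.

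BUCY treated piglets 2 and 3 stood apart from the others. On the second principal component of all genes tested, which held 25.7% of the variance, they lay at 55.5 and 67.8 and the other 20 piglets between -44.6 and 28.4. Of 15 enterocyte markers, 8 were measured, and their mean log2 ratio was 0.68, -1.24, -1.996, 0.51 and 0.00 in BUCY treated piglets 1 to 5. In the other 3 groups that mean lay between -0.57 and 0.73. Piglet 3 also had the fewest probes well above background (59.7%, against up to 72.5%). The solute carrier genes varied more in the BUCY treated group than in the others, with a median SD of 0.415 against 0.225 to 0.252. Over all genes tested that SD was 0.243 against 0.165 to 0.189. The genes named in the BUCY comparison are therefore given with and without these 2 piglets.

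**Figure D1:**
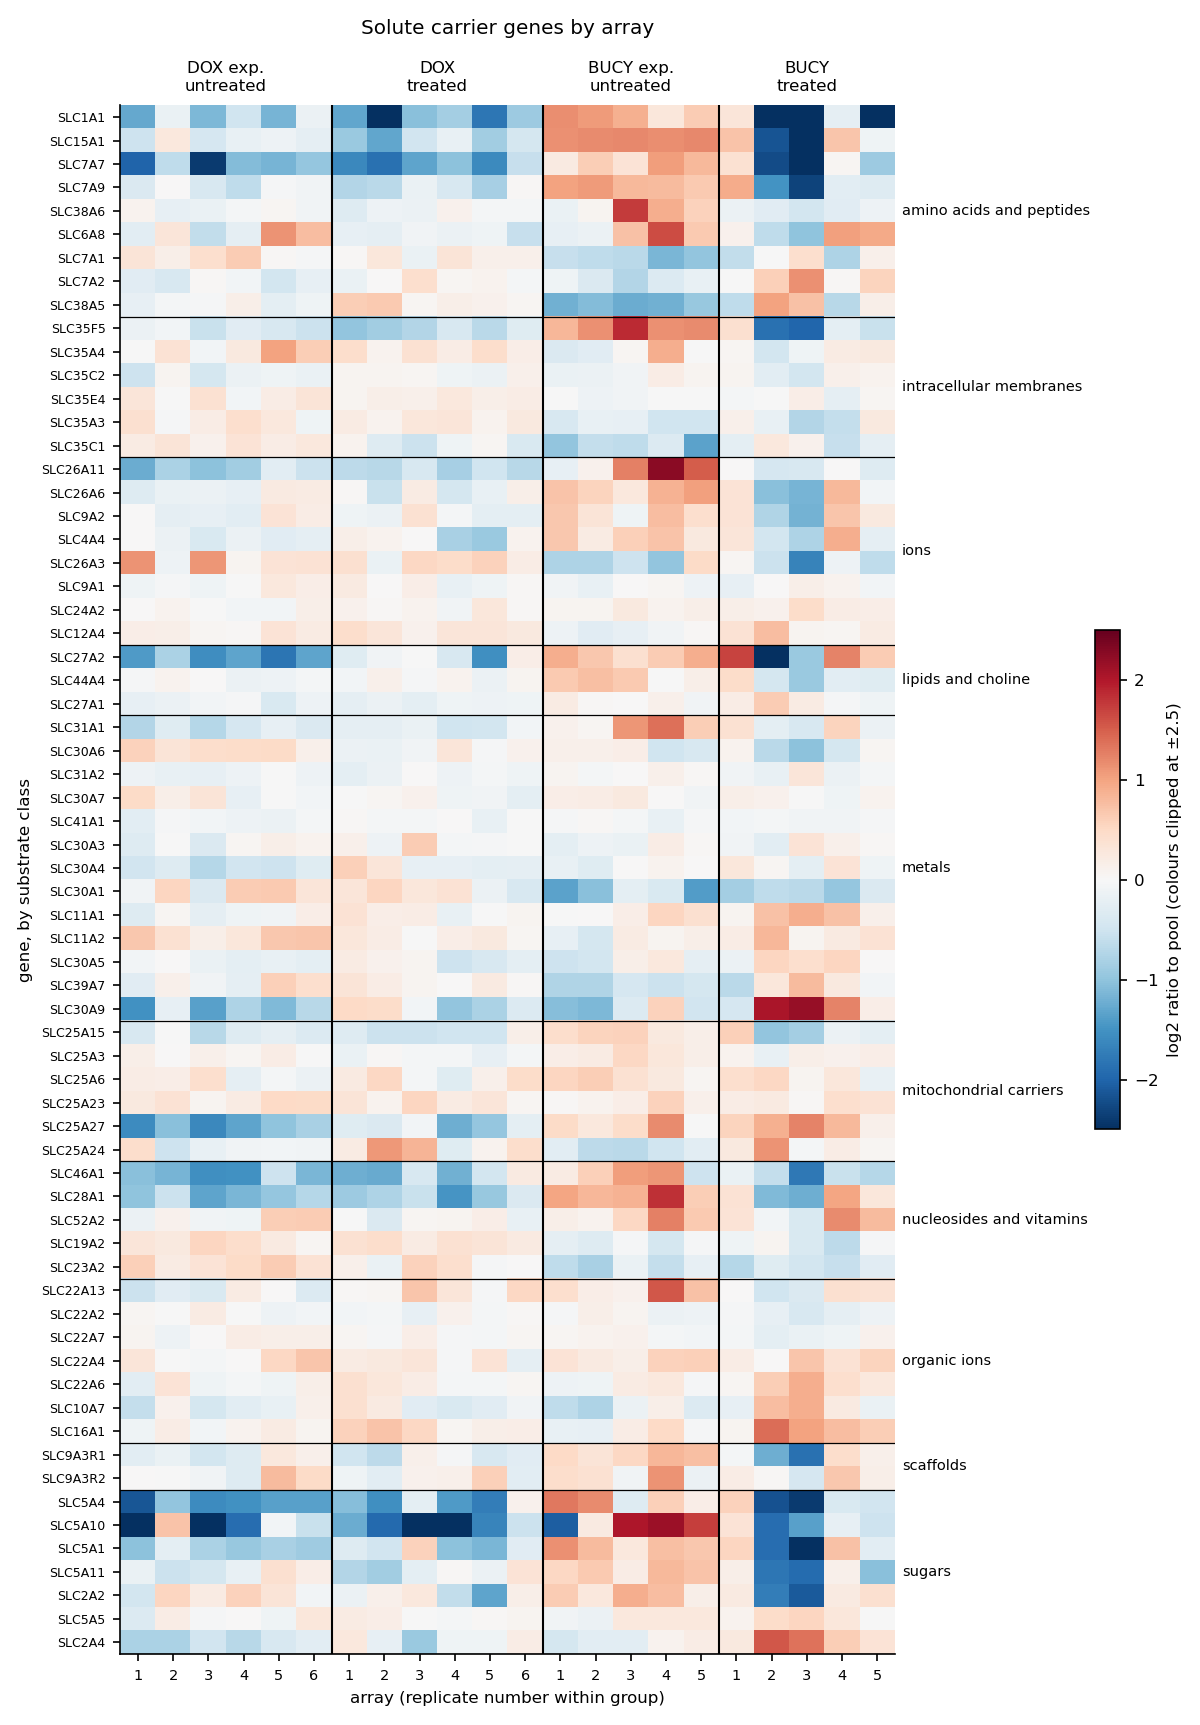
Log2 ratio to the pool of solute carrier genes (rows, by substrate class) in each of 22 piglets (columns, by group and replicate number). Colours run from blue (below the pool) to red (above it) and are clipped at ±2.5. BUCY treated piglets 2 and 3 are blue in SLC5A1, SLC15A1, SLC7A7 and SLC1A1, where the untreated piglets of that experiment are red.

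The untreated piglets of both experiments were compared first, because they set the level against which each drug was read. Between them 33 of 67 solute carrier genes differed at an adjusted p under 0.05 (limma, Benjamini-Hochberg over all genes), against 25.2% of all genes tested. In the BUCY experiment 19 were higher (13% of all genes were) and 14 lower (12.2% of all genes). The median difference was 0.19, against 0.03 over all genes. The 2 untreated groups did not overlap in 26 of 67, against 17.9% of all genes. Among those higher in the BUCY experiment were SLC5A1 for glucose, SLC28A1 for nucleosides, SLC46A1 for folate and SLC27A2 for fatty acids, and among those lower were the importers SLC7A1 and SLC38A5 and 3 zinc carriers. Median centring in place of loess left 18 called, 8 higher and 10 lower. Slide as a fixed block ended 11 of the 33 calls. These were SLC1A1 (1.41, adjusted p = 0.0747), SLC5A1, SLC7A9 (0.97), SLC38A6 (0.55), SLC26A6 (0.75), SLC4A4 (0.57), SLC44A4 (0.37), SLC26A3 (-0.97), SLC30A6 (-0.48), SLC35E4 (-0.27) and SLC12A4 (-0.23). Scan day as a fixed block ended those of SLC4A4 (0.57), SLC30A6 (-0.42), SLC35E4 (-0.23) and SLC12A4 (-0.25).

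The sugar class was set by family number and so also holds SLC5A5, the sodium-iodide symporter. Among its 7 genes 3 were higher and none was lower in the untreated BUCY experiment piglets. SLC5A1, the sodium-glucose cotransporter of the brush border, measured 1.15, 0.79, 0.26, 0.76 and 0.67 in them. In the DOX experiment it lay between -1.02 and -0.24, with a median of -0.86. The groups did not overlap, and the difference was 1.51 (SE 0.47, 2.84-fold, adjusted p = 0.0214). Leaving out BUCY untreated piglet 1 put it at 1.40 with an adjusted p of 0.0505, and with slide as a fixed block it was 1.34 and not called. SLC5A4, a relative of SLC5A1, was 2.08 higher (SE 0.45, adjusted p = 0.00172). SLC5A10, a carrier of mannose and fructose, was also 2.08 higher (adjusted p = 0.04), but its piglets ranged from -2.06 to 2.13 in the BUCY experiment and its second probe differed by -0.02. Leaving out any of DOX untreated piglets 1, 3 or 4 or BUCY untreated piglets 3, 4 or 5 ended that call, with differences from 1.70 to 1.95. SLC2A2, the basolateral glucose carrier, differed by 0.36 (adjusted p = 0.574).

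Of 9 genes for amino acids and peptides 4 were higher and 2 lower. SLC7A7, the basolateral exchanger that releases cationic amino acids, read 0.23, 0.62, 0.34, 1.04 and 0.82 in the BUCY experiment. It lay between -2.39 and -0.63 in the DOX experiment, with a median of -1.12, and the difference was 1.98 (SE 0.47, 3.95-fold, adjusted p = 0.00322). All 4 of its probes differed by 1.68 or more. SLC1A1, the apical carrier of glutamate, aspartate and cysteine, was 1.54 higher (adjusted p = 0.02), and its 4 probes ran from 0.73 to 1.54. SLC7A9, the light chain of the apical cystine and cationic amino acid exchanger, was 1.12 higher (adjusted p = 0.0245), a call lost without BUCY untreated piglet 2 (1.07, adjusted p = 0.0521) or DOX untreated piglet 4 (1.04, adjusted p = 0.0522). SLC38A6 was 0.68 higher (adjusted p = 0.0221) and lost its call without BUCY untreated piglet 3 (0.40) or 4 (0.61). SLC15A1, the proton-coupled peptide carrier of the brush border, was at 1.14, 1.17, 1.19, 1.16 and 1.19, close together and above all 6 untreated piglets of the DOX experiment (-0.51 to 0.27). Its difference of 1.37 just missed the threshold (adjusted p = 0.0526) and passed it in a fit without BUCY treated piglets 2 and 3 (adjusted p = 1.11e-05).

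SLC7A1 and SLC38A5 were the lower genes of this class. SLC7A1, the general carrier of cationic amino acids, was at -0.59, -0.64, -0.67, -1.15 and -0.99 in the BUCY experiment and between -0.03 and 0.63 in the DOX experiment. SLC38A5, a sodium-coupled carrier of glutamine, was at -1.21, -1.09, -1.25, -1.20 and -0.94 against -0.24 to 0.14. Both sets of piglets stood clear of each other in each gene. SLC7A1 was 1.06 log2 units lower (difference -1.06, SE 0.18, adjusted p = 0.000154), as was SLC38A5 (difference -1.06, SE 0.23, adjusted p = 0.00164). Each was called under all 36 alternatives.

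Vitamin and nucleoside carriers went both ways, 2 of 5 higher and 2 lower. SLC28A1, which takes up pyrimidine nucleosides, read 0.99, 0.84, 0.86, 1.83 and 0.62 in the untreated BUCY experiment piglets and -1.31 to -0.54 in those of the DOX experiment (median -0.99). It was 1.97 higher (SE 0.32, 3.93-fold, adjusted p = 9.53e-05), and both of its probes were higher, by 0.81 and 1.97. SLC46A1, the proton-coupled folate carrier, was 1.64 higher (SE 0.32, adjusted p = 0.000603), with 1 BUCY experiment piglet, at -0.51, level with the highest of the DOX experiment. SLC23A2, a carrier of vitamin C, was lower (difference -0.91, SE 0.14, adjusted p = 5.06e-05), and so was the thiamine carrier SLC19A2 (difference -0.51, adjusted p = 0.00245).

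Among 13 metal carriers 1 was higher and 4 were lower. SLC31A1, the copper importer, was 1.11 higher (SE 0.21, adjusted p = 0.00049), with values of 0.10, 0.06, 1.11, 1.37 and 0.61 that did not reach down to the -0.74 to -0.20 of the DOX experiment. SLC30A1, the zinc exporter of the plasma membrane, was at -1.33, -1.05, -0.24, -0.38 and -1.41 against -0.37 to 0.65. The groups overlapped narrowly, and the difference was -1.16 (SE 0.23, adjusted p = 0.000651). SLC39A7, which releases zinc from the endoplasmic reticulum, was lower by a difference of -0.67 (adjusted p = 0.0116). SLC11A2, the proton-coupled importer of ferrous iron, differed by -0.52 (adjusted p = 0.00749) and SLC30A6, a zinc carrier of the Golgi, by -0.50 (adjusted p = 0.0357). The second SLC11A2 probe differed by -0.12.

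Ion carriers numbered 3 higher and 2 lower of 8. SLC26A11, a sulfate carrier, was 1.77 higher (SE 0.30, adjusted p = 0.000145), although its values spread from -0.20 to 2.25 in the BUCY experiment. SLC26A3, the chloride-bicarbonate exchanger whose loss causes chloride diarrhoea, differed by -0.99 (SE 0.29, adjusted p = 0.0162). It was the only one of the 33 called genes whose sign changed between slides (-1.88 and 0.13) or scan days (-1.39 and 0.23), and its call ended without BUCY untreated piglet 4 (-0.87, adjusted p = 0.0507). SLC26A6, an apical anion exchanger, was 0.75 higher (adjusted p = 0.0441), SLC4A4, the basolateral sodium-bicarbonate cotransporter, 0.68 higher (adjusted p = 0.0437), and SLC12A4, a potassium-chloride cotransporter, differed by -0.29 (adjusted p = 0.0458). These 3 calls were each lost without single piglets. For SLC26A6 these were BUCY untreated 1, 2, 4 or 5, DOX untreated 1 to 4 and DOX treated 1 or 5 (0.67 to 0.78). For SLC4A4 they were BUCY untreated 1, 3 or 4 and each DOX untreated piglet (0.62 to 0.72), and for SLC12A4 BUCY untreated 1 to 4, DOX untreated 1, 2, 5 or 6 and DOX treated 2, 4, 5 or 6 (-0.31 to -0.26).

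SLC25A27, an uncoupling protein of the inner mitochondrial membrane, gave the smallest adjusted p of the solute carrier genes. It was at 0.48, 0.26, 0.46, 1.17 and 0.00 in the BUCY experiment and between -1.60 and -0.80 in the DOX experiment, a difference of 1.70 (SE 0.23, 3.25-fold, adjusted p = 1.65e-05). SLC25A15, the ornithine carrier, was 0.72 higher (adjusted p = 0.0131). SLC27A2, an acyl-CoA synthetase and fatty acid carrier, was 2.07 higher (SE 0.57, adjusted p = 0.00998), with the brightest of its 3 probes at the top of a range that began at 0.19. The choline carrier relative SLC44A4 was 0.48 higher (adjusted p = 0.0408), a call lost without BUCY untreated piglet 1, 2 or 3 or any DOX untreated piglet but 2 (0.40 to 0.49). Of 6 carriers of intracellular membranes 1 was higher and 3 lower. SLC35F5, a family member whose substrate is not established, was 1.57 higher (adjusted p = 0.000676). SLC35C1, the GDP-fucose carrier of the Golgi, differed by -1.01 (SE 0.16, adjusted p = 7.91e-05), SLC35A3, the Golgi carrier of UDP-N-acetylglucosamine, by -0.55 (adjusted p = 0.00731) and SLC35E4 by -0.24 (adjusted p = 0.0398). SLC22A13, a carrier of nicotinate and urate, was 0.81 higher (adjusted p = 0.0109). SLC19A2, SLC25A15, SLC30A6 and SLC35E4 are named after their values were seen.

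Markers moved between these untreated groups too. Of the 8 enterocyte markers 3 were higher and 1 lower in the BUCY experiment, and 6 of 6 cell cycle genes were lower. Of all genes tested, 25.2% differed. FABP6 and SLC10A2, which lean towards the ileum, differed by -2.21 and -1.90. GUCA2B, set on the same list of 3 genes, was 1.26 higher. The part these played in the solute carrier differences was not tested. Any other difference between the 2 experiments cannot be told apart from these.

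**Figure D2:**
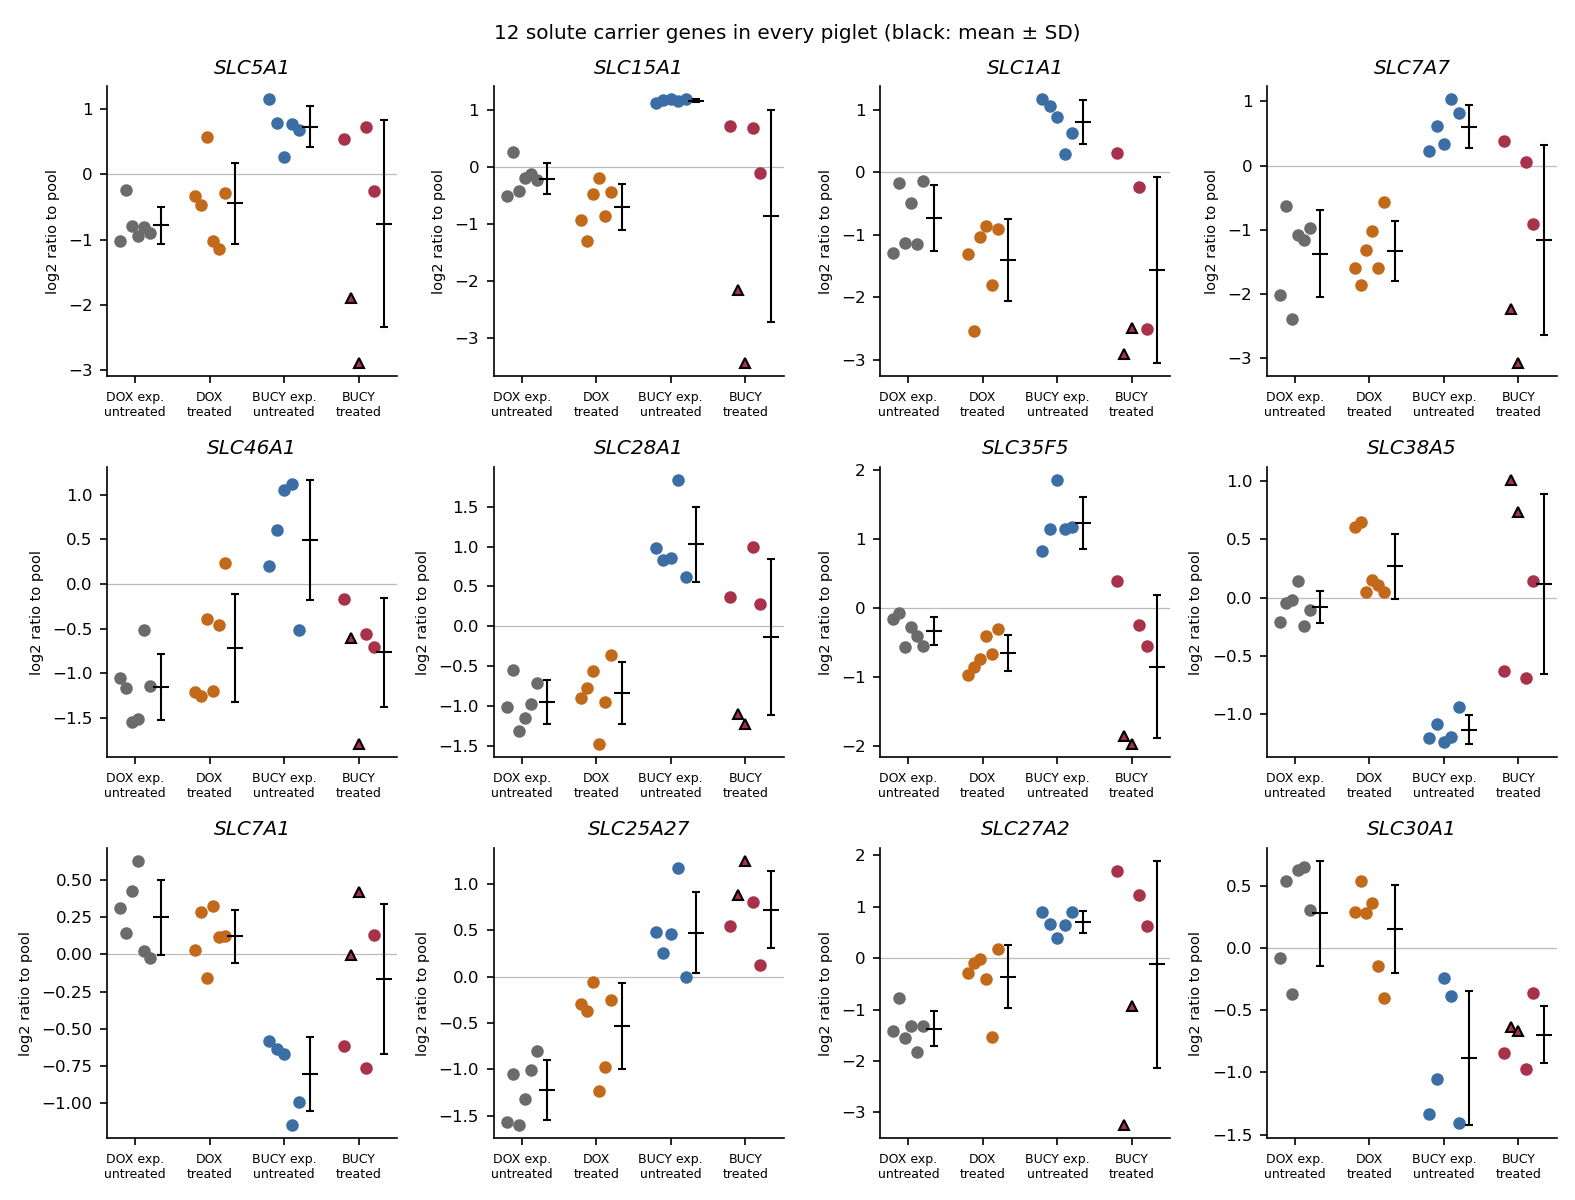
Log2 ratio to the pool of 12 solute carrier genes, 1 panel per gene, with 1 point per piglet in the 4 groups. Black marks show the mean and SD, and triangles are BUCY treated piglets 2 and 3, which are the lowest points of SLC5A1, SLC15A1, SLC7A7 and SLC35F5 and the highest of SLC38A5 in that group.

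The BUCY comparison asks how these genes differed after busulfan with cyclophosphamide. With all piglets, 28 of 67 solute carrier genes passed the threshold, against 17.3% of all genes tested. Of these, 16 fell (9.05% of all genes did) and 12 rose (8.23% of all genes). Among those that fell were the carriers of glucose (SLC5A1), peptides (SLC15A1), glutamate (SLC1A1), cystine (SLC7A9) and folate (SLC46A1), and among those that rose were SLC7A1 and SLC7A2 for cationic amino acids and SLC38A5 for glutamine. Without BUCY treated piglets 2 and 3 the count was 3 (4.48%), against 4.54% of all genes: SLC35F5, which fell, and SLC38A5, which rose, were among them. All 28 kept their sign. With piglet 2 alone left out 15 passed, and with piglet 3 alone left out 18. A fit on the 2 groups only called 2, SLC35F5 among them. The shares of all genes in these fits are not given here, so the lower counts need not be particular to solute carriers. Errors in the main fit were pooled over the 4 groups. The BUCY treated piglets spread widest, with a median SD of the solute carrier genes of 0.415, against 0.225 to 0.252 in the other groups. The comparison shares its untreated piglets with the one above. Of the 28 genes, 19 also passed there, and all 19 differed in the opposite direction. The shared piglets enter the 2 comparisons with opposite sign, so these results are not independent. How much of each difference lies in the level of those untreated piglets was not tested.

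Treated and untreated piglets did not overlap in 9 of 67 genes, against 6.57% of all genes. Among these were SLC2A4, SLC5A11, SLC7A2, SLC12A4, SLC15A1, SLC25A24, SLC35F5 and SLC38A5. Piglets 2 and 3 were the 2 lowest treated animals in 14 of the 16 genes that fell, and the 2 highest in 8 of the 12 that rose. Treated piglets 1 and 2 shared a scan day, as did 3 and 4, so piglets 2 and 3 entered separate days. Within each scan day all 28 had the sign of the pooled difference. The 28 were picked on these same piglets, so this is no separate support. Within slides, where 1 untreated piglet met 1 or 2 treated ones, 18 of 28 had that sign on all 3 slides. The exceptions were SLC5A1, SLC5A4, SLC7A7, SLC7A9, SLC10A7, SLC16A1, SLC25A15, SLC26A6, SLC30A9 and SLC39A7. With slide as a fixed block, which takes out piglet 2 because it was alone on its slide, 12 passed, and 17 of the 28 calls ended. Among these were SLC5A1 (-1.17), SLC5A4 (-1.13), SLC7A7 (-1.68), SLC7A9 (-1.30), SLC9A3R1 (-1.07), SLC15A1 (-1.72), SLC25A15 (-0.53), SLC26A6 (-0.81) and SLC28A1 (-1.06), which had fallen. SLC2A4 (0.75), SLC10A7 (0.37), SLC16A1 (0.42), SLC25A24 (0.60), SLC30A9 (0.92), SLC35C1 (0.52) and SLC39A7 (0.52), which had risen, were also among them. Scan day as a fixed block ended 2 calls, those of SLC5A1 (-1.50) and SLC10A7 (0.61). Median centring gave 4 that rose and 18 that fell, and moved the median of all genes by -0.12. Of 27 calls followed gene by gene, median centring ended 8, and scale normalization between arrays ended 5. Among all alternatives the rise was as small as 0.14 for SLC7A1, 0.15 for SLC35C1, 0.17 for SLC12A4 and 0.18 for SLC39A7.

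Over the 7 genes of the sugar class the median difference was -1.47, with 3 that fell and 1 that rose. It was -0.39 without piglets 2 and 3, and none passed. SLC5A1 was at 0.54, -1.90, -2.89, 0.73 and -0.26 in BUCY treated piglets 1 to 5 and at 1.15, 0.79, 0.26, 0.76 and 0.67 in the untreated. Piglets 2 and 3 were far below every untreated animal, and 1 and 4 were level with them. The mean fell from 0.73 ± 0.32 to -0.76 ± 1.58 (SD, n = 5 each), a difference of -1.48 (SE 0.49, 2.79-fold, adjusted p = 0.041). That SE comes from the error pooled over the 4 groups, and the fit on the 2 groups only did not call SLC5A1. Without piglets 2 and 3 the difference was -0.39 (adjusted p = 0.585), and leaving out BUCY treated 2 or 3 or BUCY untreated 1, 2, 4 or 5 alone also ended the call (-1.50 to -0.95). Its 5 probes all fell, by differences from -2.52 to -0.93.

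SLC5A11, which carries myo-inositol with sodium, was at 0.16, -1.80, -1.93, 0.13 and -1.04, with all treated piglets below the lowest untreated one at 0.19. It fell by a difference of -1.47 (adjusted p = 0.00588), and the difference was -0.82 without piglets 2 and 3 (adjusted p = 0.111). SLC5A4 fell by a difference of -1.56 (adjusted p = 0.0278), and -0.68 without them (adjusted p = 0.434). Its call was also lost without BUCY treated 2 or 3 or BUCY untreated 1 or 2 alone (-1.41 to -1.20). SLC2A2 did not pass, with a difference of -1.13 (adjusted p = 0.0607), and SLC5A10 did not either (-1.54, adjusted p = 0.166). These were -0.25 and -0.93 without piglets 2 and 3. SLC2A4, the insulin-responsive glucose carrier of muscle and fat, went the other way. It read 0.25, 1.55, 1.36, 0.62 and 0.34 after BUCY, above all untreated piglets (-0.44 to 0.18). It rose by 0.96 (SE 0.23, adjusted p = 0.00857) and was 0.54 higher without piglets 2 and 3 (adjusted p = 0.161), and its other probes differed by as little as 0.10.

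Amino acid and peptide carriers were called in 8 of 9 genes, 5 that fell and 3 that rose, against 17.3% of all genes. Their median difference was -0.88, and -0.73 without piglets 2 and 3. In that fit only 1 of the 9 passed, a gene that rose, against 4.54% of all genes. SLC1A1 was at 0.31, -2.91, -2.49, -0.23 and -2.51 after BUCY and at 1.17, 1.06, 0.88, 0.29 and 0.63 without. Here piglet 5 was as low as 2 and 3, and piglet 1 was level with the lowest untreated animal. The difference was -2.37 (SE 0.49, 5.18-fold lower, adjusted p = 0.00283), and -1.62 without piglets 2 and 3 (adjusted p = 0.0607). All 4 SLC1A1 probes fell, by differences from -2.37 to -0.76, and the one used fell most. SLC15A1 was at 0.72, -2.16, -3.44, 0.70 and -0.10, with every treated piglet below the tight untreated group (1.14 to 1.19). It fell by a difference of -2.03 (SE 0.53, adjusted p = 0.0129), and the difference was -0.73 without piglets 2 and 3 (adjusted p = 0.0579). Leaving out piglet 2 alone put it at -1.70 and ended the call.

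The 2 exchangers of cationic amino acids fell together with those carriers. SLC7A9 was at 0.94, -1.50, -2.31, -0.26 and -0.33 after BUCY, with piglet 1 inside the untreated range of 0.65 to 1.06. SLC7A7 was at 0.39, -2.23, -3.08, 0.06 and -0.91, again with piglet 1 among the untreated (0.23 to 1.04). SLC7A9 fell by a difference of -1.55 (adjusted p = 0.00754) and SLC7A7 by one of -1.76 (adjusted p = 0.0173). Without piglets 2 and 3 these were -0.75 (adjusted p = 0.0874) and -0.76 (adjusted p = 0.284). SLC7A7 also lost its call without piglet 2 (-1.49) or piglet 3 (-1.28) alone. In SLC38A6 the treated piglets were close together (-0.46 to -0.13) and the untreated ones spread from -0.17 to 1.74. The difference of -0.88 (adjusted p = 0.0105) was -0.81 without piglets 2 and 3 (adjusted p = 0.0931).

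SLC38A5 was at -0.63, 1.01, 0.74, -0.69 and 0.14 after BUCY, above all untreated piglets, the highest of which was at -0.94. It rose by 1.25 (SE 0.24, 2.38-fold, adjusted p = 0.0016) and by 0.74 without piglets 2 and 3 (adjusted p = 0.0159). It passed under 35 of 36 alternatives and missed in the fit on the 2 groups only (adjusted p = 0.0505). SLC7A2, an inducible importer of cationic amino acids, was at -0.01, 0.59, 1.13, 0.02 and 0.56 against -0.73 to -0.11, and rose by 0.81 (SE 0.17, adjusted p = 0.00377). Without piglets 2 and 3 it was 0.54 higher (adjusted p = 0.0565). SLC7A1 rose by 0.64 (adjusted p = 0.0228), and was 0.39 higher without them (adjusted p = 0.291). Its call was lost without BUCY treated 2 or 3 or BUCY untreated 4 or 5 alone (0.49 to 0.60).

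Folate and nucleoside carriers fell in 2 of 5 genes. SLC46A1 was at -0.17, -0.60, -1.79, -0.56 and -0.71 after BUCY, below 4 of the 5 untreated piglets (0.20, 0.60, 1.05, 1.11 and -0.51). The difference was -1.26 (SE 0.33, adjusted p = 0.0138), and -0.97 without piglets 2 and 3 (adjusted p = 0.135). SLC28A1 was at 0.36, -1.09, -1.22, 0.99 and 0.28, with piglet 4 inside the untreated range. Its difference was -1.16 (adjusted p = 0.0203), and -0.48 without piglets 2 and 3 (adjusted p = 0.357), and it was lost without piglet 2 (-0.92) or piglet 3 (-0.89) alone. The vitamin C carrier SLC23A2, which differed between the experiments, was 0.02 apart here (adjusted p = 0.957), and -0.05 without piglets 2 and 3.

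Ion carriers fell in 2 of 8 genes and rose in 1. SLC26A11 fell by a difference of -1.21 (adjusted p = 0.0113), and SLC26A6 by one of -0.91 (adjusted p = 0.0307). Without piglets 2 and 3 they were -1.09 (adjusted p = 0.106) and -0.32 (adjusted p = 0.489). SLC26A6 also lost its call without BUCY treated 2 or 3 or BUCY untreated 1, 4 or 5 alone (-0.90 to -0.67). SLC26A3 did not pass (-0.07, adjusted p = 0.897) and neither did SLC4A4 (-0.53, adjusted p = 0.151). These were 0.27 and -0.16 without piglets 2 and 3. SLC12A4 rose by 0.43 (adjusted p = 0.0125), and was 0.34 higher without those piglets (adjusted p = 0.0501). SLC9A3R1, the scaffold NHERF1 that tethers sodium-proton exchangers in the brush border, fell by a difference of -1.10 (adjusted p = 0.0174), which was -0.41 without piglets 2 and 3 (adjusted p = 0.237) and -0.92, not called, without piglet 2 alone.

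Metal carriers rose in 2 of 13 genes, and none fell. SLC30A9, a zinc carrier of mitochondria, was at -0.41, 2.04, 2.18, 1.24 and 0.16 after BUCY, and untreated piglets ranged from -1.12 to 0.57. It rose by 1.53 (SE 0.44, 2.89-fold, adjusted p = 0.0208) and was 0.82 higher without piglets 2 and 3 (adjusted p = 0.335). Its other probe differed by only 0.36 with all piglets. BUCY treated 2 or 3 or BUCY untreated 1 or 2 left out alone also ended the call (1.25 to 1.39). SLC39A7 rose by 0.69 (adjusted p = 0.0196), with 0.42 without them (adjusted p = 0.264) and no call without piglet 2 (0.66) or piglet 3 (0.53) alone. The copper importer SLC31A1 missed the threshold (-0.62, adjusted p = 0.0552), as did SLC11A2 (0.38, adjusted p = 0.0721). SLC30A1 differed by 0.19 and did not pass. The 3 were at -0.39, 0.30 and 0.16 without piglets 2 and 3.

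SLC35F5 gave the smallest adjusted p of the 28. It was at 0.40, -1.87, -1.98, -0.25 and -0.55 after BUCY and at 0.83, 1.15, 1.86, 1.14 and 1.18 without, so that every treated piglet lay below every untreated one. It fell by a difference of -2.08 (SE 0.32, 4.23-fold, adjusted p = 0.000279), and without piglets 2 and 3 by one of -1.37 (adjusted p = 0.00102). Both of its probes fell, the values within scan days ran from -2.26 to -1.74, and it passed under all 36 alternatives.

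The remaining genes that passed were spread over the other classes. SLC44A4 fell by a difference of -0.73 (adjusted p = 0.00794) and SLC25A15 by one of -0.72 (adjusted p = 0.026). SLC16A1, the carrier of lactate and short-chain fatty acids, rose by 0.72 (adjusted p = 0.0129), SLC10A7, grouped with bile acid carriers by family, by 0.66 (adjusted p = 0.0445), and SLC35C1 by 0.65 (adjusted p = 0.0117). SLC25A24, which exchanges ATP-magnesium and phosphate across the inner mitochondrial membrane, rose by 0.78 (adjusted p = 0.0257). None of these 6 passed without piglets 2 and 3, where SLC44A4 was at a difference of -0.48 (adjusted p = 0.121) and SLC25A15 at -0.33 (adjusted p = 0.411). SLC16A1 was then 0.43 higher (adjusted p = 0.206), SLC10A7 0.31 (adjusted p = 0.527), SLC35C1 0.44 (adjusted p = 0.187) and SLC25A24 0.63 (adjusted p = 0.149). SLC25A24 also lost its call without BUCY treated piglet 2 (0.58) or BUCY untreated piglet 2 or 3 (0.73 each) alone, and SLC10A7 without BUCY treated 2, 3 or 4, BUCY untreated 1, 2, 3 or 5, DOX treated 6 or DOX untreated 4 or 5 (0.51 to 0.71). SLC27A2 was not called (-0.83, adjusted p = 0.355): piglets 1, 4 and 5 were at 1.70, 1.24 and 0.63, and piglets 2 and 3 at -3.25 and -0.93. Without those 2 its difference was above 0 (0.485, adjusted p = 0.454). SLC22A4, a carrier of ergothioneine, differed by -0.02 (adjusted p = 0.957), and by -0.01 without them.

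**Figure D3:**
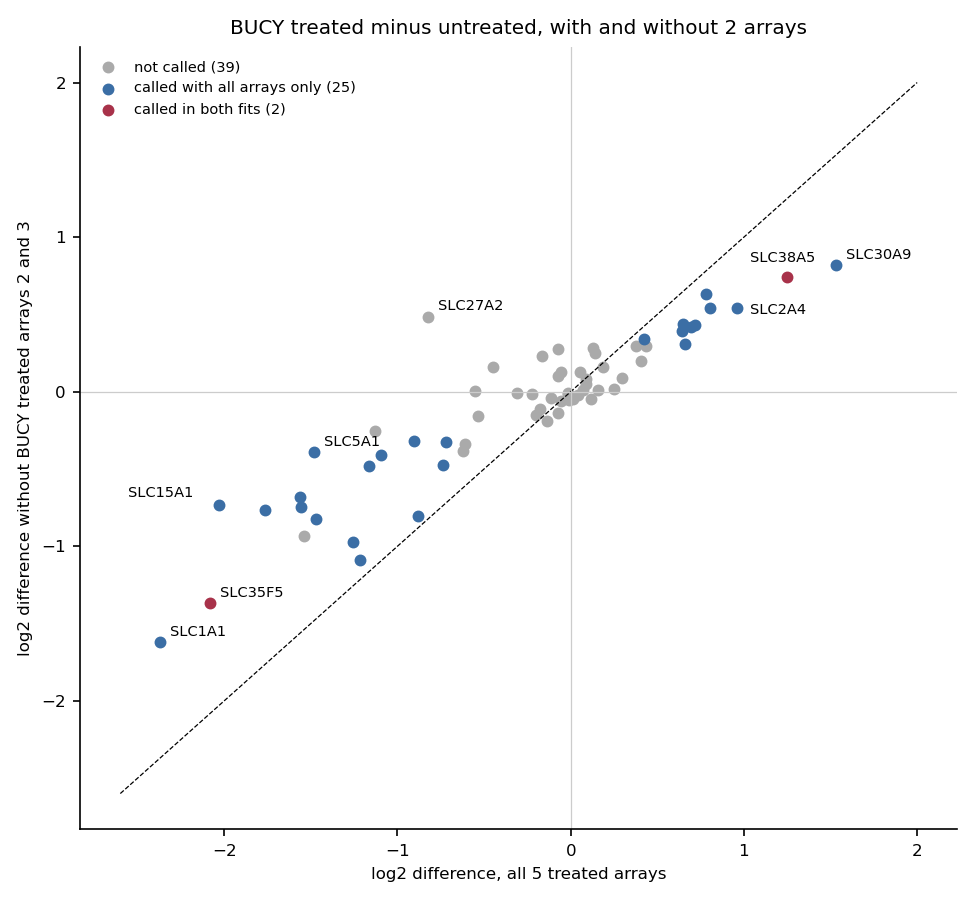
Log2 difference of the BUCY treated from the untreated piglets for the solute carrier genes shown, with all 5 treated piglets (x) and without piglets 2 and 3 (y). The dashed line marks equal values, red points passed in both fits, blue with all piglets only and grey in neither fit. SLC5A1 lies at -1.48 on the x axis and -0.39 on the y axis.

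Markers of cell types also differed after BUCY. Of the 8 enterocyte markers 4 fell after BUCY, namely ANPEP (-0.99), DPP4 (-1.67), APOA1 (-1.88) and TMPRSS15 (-1.96), and FABP1, FABP2, APOA4 and CDX2 did not pass. Of 6 cell cycle genes 5 rose, and all 6 T and NK cell genes fell. Of all genes tested, 17.3% passed. Without piglets 2 and 3 none of those 4 enterocyte markers passed (-0.49, -0.89, -0.91 and -1.32), while FABP1 was 1.67 higher and passed (adjusted p = 0.00671). In that fit 3 cell cycle genes rose and all 6 T and NK cell genes fell, with 4.54% of all genes called. Mean smooth muscle markers ranged from 0.14 to 1.65 in treated piglets, highest in piglet 3, and from -0.40 to 0.35 in the untreated. Of the 3 smooth muscle genes measured 1 rose with all piglets, and none passed without piglets 2 and 3. The part that shares of cell types played in the solute carrier differences was not tested.

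DOX was read against the untreated piglets of its own experiment. None of the 67 solute carrier genes passed the threshold in limma, against 0.848% of all genes tested (0.368% higher and 0.481% lower). At an unadjusted p under 0.05 there were 8, or 11.9%, against 13.8% of all genes, 4 higher and 4 lower. The median difference was 0.00, and the differences ran from -0.68 (SLC1A1) to 1.01 (SLC27A2). A fit on the 2 DOX groups only called 3 genes, and scale normalization between arrays called 1, SLC25A27 (0.64, adjusted p = 0.0468). Leaving out single piglets called none, and leaving out both BUCY treated piglets 2 and 3, which share the fit's error, called SLC27A2.

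SLC27A2 ranged from -1.54 to 0.17 in the treated piglets, with a median of -0.19, and from -1.83 to -0.78 in the untreated, with a median of -1.37. All treated piglets but 1 lay above every untreated one. The difference was 1.01 (SE 0.54, adjusted p = 0.426), with adjusted p = 0.0442 in the fit on the 2 groups and 0.034 without BUCY treated piglets 2 and 3. Its 3 probes ran from -0.06 to 1.01. The same fit on the 2 groups called SLC30A6 (-0.40, adjusted p = 0.0401) and SLC35C1 (-0.44, adjusted p = 0.0408).

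The 2 DOX groups did not overlap in 2 of 67 genes, SLC35C1 and SLC30A4, against 2.62% of all genes. SLC35C1 was between -0.54 and 0.08 after DOX, with a median of -0.21, and between 0.11 and 0.33 without (adjusted p = 0.182). SLC30A4, a zinc carrier of vesicles, was between -0.24 and 0.59 against -0.72 to -0.30, a difference of 0.47 (adjusted p = 0.107). It is named here after its values were seen.

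The nutrient carriers that fell after BUCY were spread on both sides of 0 after DOX. SLC5A1 differed by 0.33 (95% interval -0.59 to 1.26, adjusted p = 0.776), SLC15A1 by -0.50 (adjusted p = 0.678), SLC7A7 by 0.04 (adjusted p = 0.977), SLC7A9 by -0.21 (adjusted p = 0.828) and SLC46A1 by 0.44 (adjusted p = 0.549). SLC1A1 lay between -2.54 and -0.86 after DOX, with a median of -1.17, and between -1.28 and -0.14 without, and its difference of -0.68 did not pass (adjusted p = 0.531). A missed threshold does not show that these genes were alike with and without DOX. The SLC5A1 interval reaches above 1, but its error is pooled over the 4 groups and so holds the spread of the BUCY treated piglets. Without BUCY treated piglets 2 and 3 the SLC5A1 difference after DOX was 0.33 with an SE of 0.24 (adjusted p = 0.492).

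**Figure D4:**
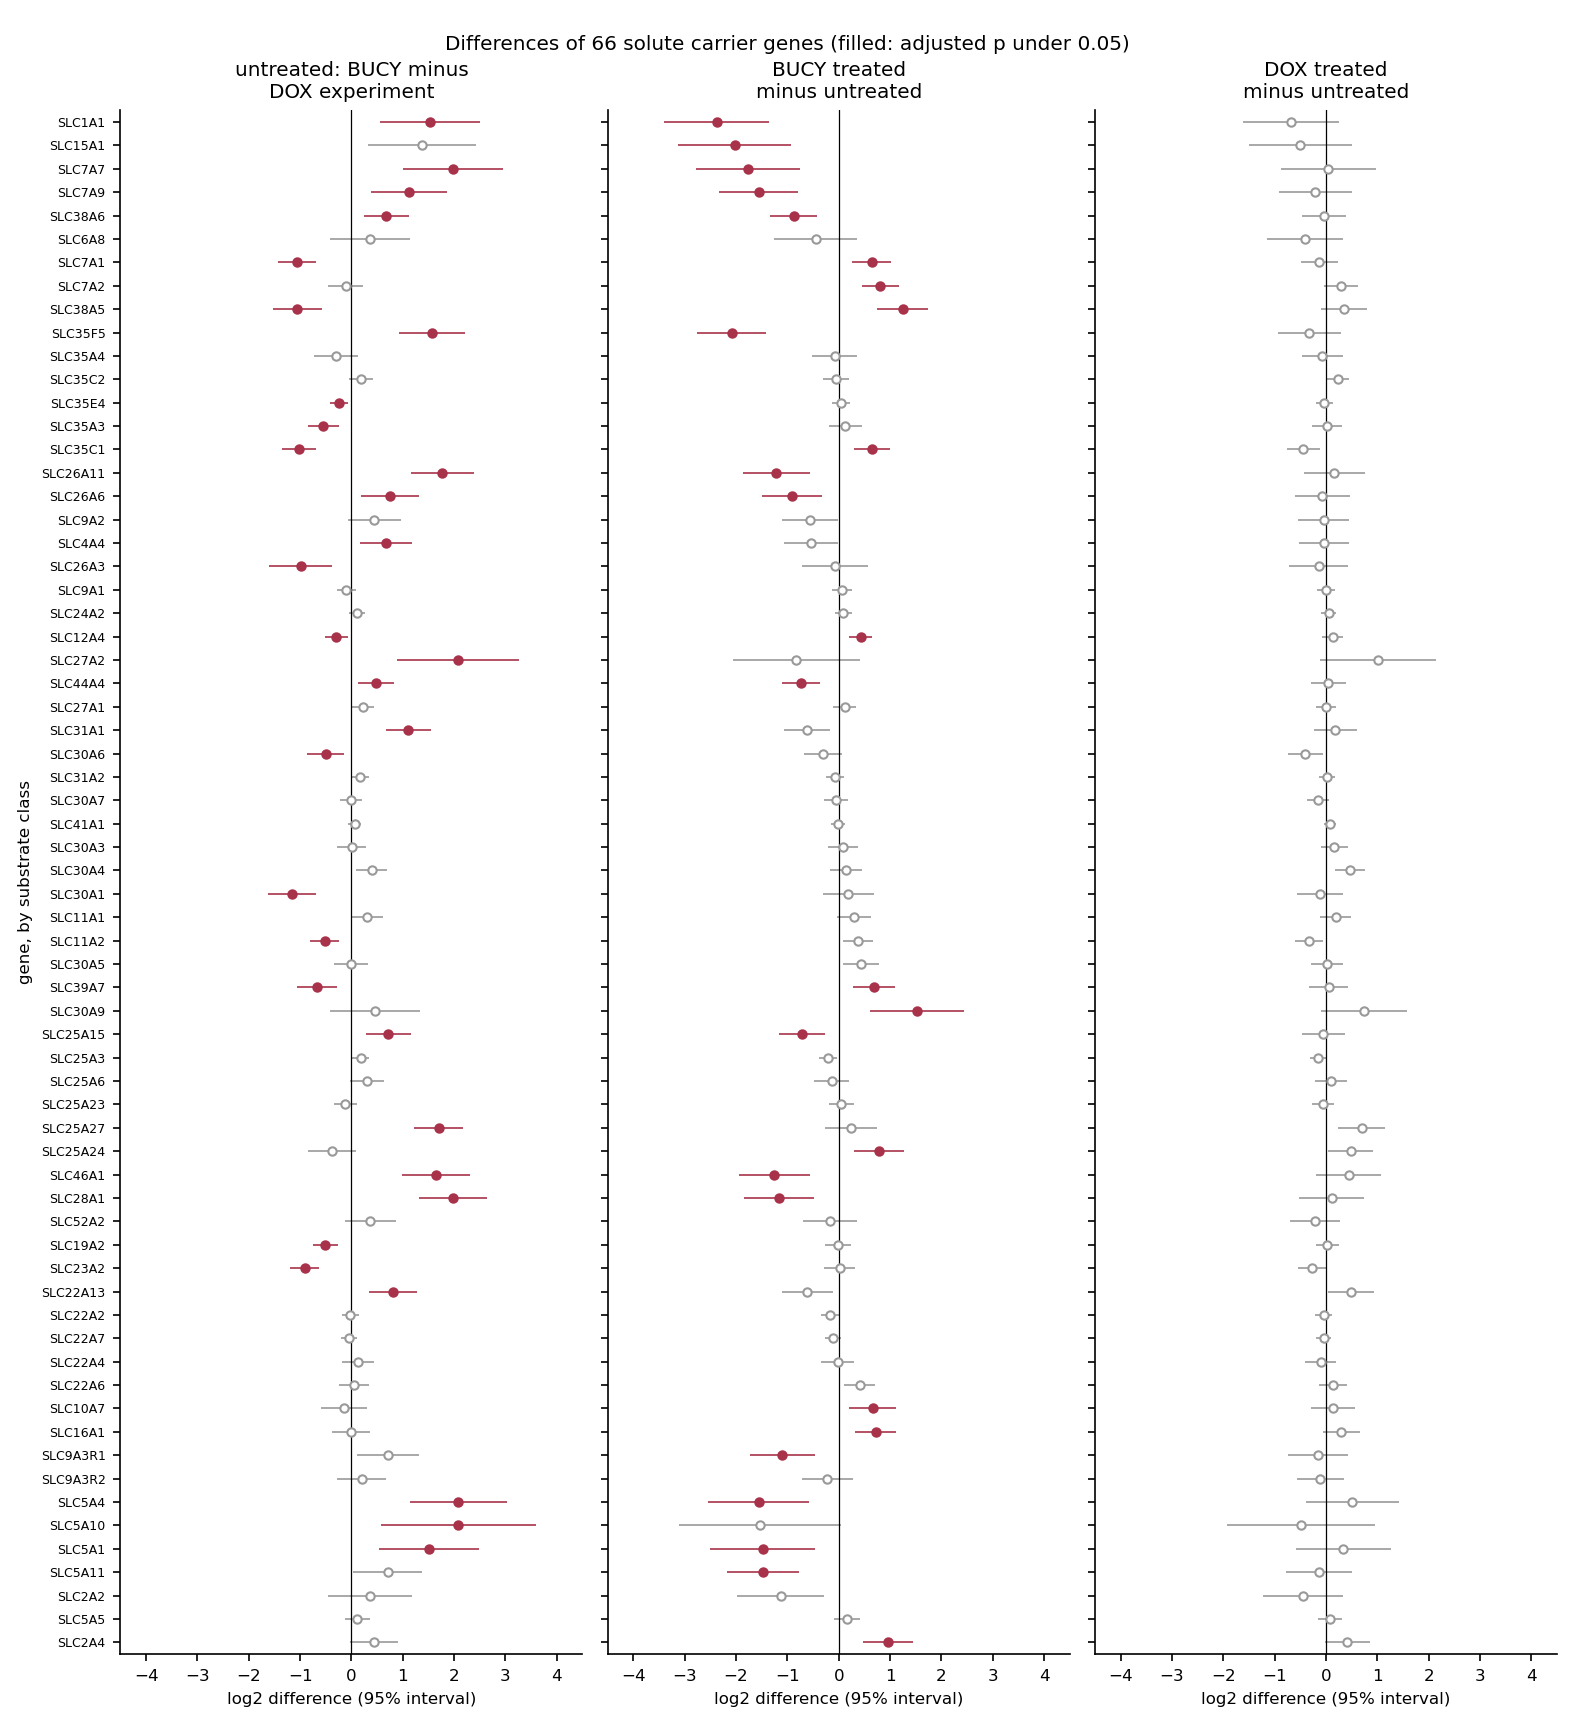
Log2 differences of solute carrier genes with 95% intervals in the comparison of untreated piglets (left), after BUCY (middle) and after DOX (right). Filled red points passed an adjusted p of 0.05, which no gene did after DOX.

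Whether the drug effects differed was tested by the BUCY difference minus the DOX difference. It passed in 6 of 67 genes, against 5.88% of all genes. In 3 it was above 0 (3.14% of all genes) and in 3 below (2.73%). The 2 drugs were given in separate experiments whose untreated piglets differed, so drug and experiment cannot be told apart in this test. The count was 0 under median centring, with 20 at an unadjusted p under 0.05. It was 18 without BUCY treated piglet 1, 14 without piglet 4, 3 without DOX treated piglet 3 or 6, and 3 without BUCY treated piglets 2 and 3 (SLC35C1, at 0.88, and SLC35F5, at -1.05, among them). SLC11A2 (0.62), SLC46A1 (-1.41) and SLC22A13 (-0.82) did not pass without those 2.

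SLC35C1 gave the smallest adjusted p. It differed by 0.65 after BUCY and by -0.44 after DOX, a contrast of 1.09 (SE 0.23, adjusted p = 0.00699). SLC11A2 differed by 0.38 and -0.32 (contrast 0.70, adjusted p = 0.0347), but its second probe differed by -0.015 and -0.14. In both genes the contrast was above 0.

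SLC35F5 differed by -2.08 after BUCY and -0.32 after DOX (contrast -1.76, SE 0.44, adjusted p = 0.019). SLC46A1 differed by -1.26 and 0.44 (contrast -1.69, adjusted p = 0.0289), and SLC22A13 by -0.61 and 0.48 (contrast -1.10, adjusted p = 0.0461). The calls of SLC11A2, SLC22A13 and SLC46A1 were each lost without single piglets. For SLC11A2 these were BUCY treated 2 or 5, BUCY untreated 1 or 2, DOX treated 3 or 6 and DOX untreated 1, 5 or 6 (0.58 to 0.69). For SLC46A1 they were BUCY treated 3, BUCY untreated 2 to 4, DOX treated 3 or 6 and DOX untreated 3 (-1.67 to -1.44). SLC22A13 was lost without BUCY treated 2 or 3, BUCY untreated 1, 4 or 5, DOX treated 2, 3, 4 or 6 or any DOX untreated piglet but 4 (-1.14 to -0.85). For the brush border carriers SLC5A1, SLC15A1, SLC1A1 and SLC7A9 and the basolateral SLC7A7 the contrast did not pass, so a difference between the drugs was not shown for them. Of the 67 genes, 25 passed in none of the 4 comparisons.

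Other genes of epithelial transport were read from a list of 59, of which 26 were measured. None passed after DOX. After BUCY 2 rose and 6 fell, or 30.8% against 17.3% of all genes, with a median of -0.22. Without BUCY treated piglets 2 and 3 none rose and 2 fell (7.69%, against 4.54% of all genes), with a median of -0.08. In the untreated comparison 8 were higher and none lower, or 30.8% against 25.2% of all genes, with a median of 0.22. In the fit without those 2 piglets 10 were higher and 2 lower (46.2%, against 29.2% of all genes). ATP1B1, a subunit of the sodium pump that powers sodium-coupled uptake, fell after BUCY by a difference of -0.70 (adjusted p = 0.0291), which was -0.36 without piglets 2 and 3 (adjusted p = 0.41). SGK1, a kinase that stimulates epithelial sodium transport, fell by one of -1.82 (adjusted p = 0.00271), and by -1.11 without them (adjusted p = 0.0482). The iron storage genes FTH1 and FTL fell by differences of -1.30 (adjusted p = 0.00134) and -0.69 (adjusted p = 0.00802), and TFRC, the transferrin receptor, rose by 0.81 (adjusted p = 0.0329). TXNIP, an inhibitor of glucose uptake, rose by 1.23 (adjusted p = 0.00598). Without piglets 2 and 3 FTH1 still fell (-1.04, adjusted p = 0.0301), and FTL (-0.59), TFRC (0.29) and TXNIP (0.71) did not pass. The regulators HNF4A and CDX2 did not pass in the BUCY, DOX or untreated comparison. SGK1 and FTH1 were 2.03 and 1.37 higher in the untreated BUCY experiment piglets (adjusted p = 0.000253 and 0.000168).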

How the data were processed

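The deposited scanner files hold the median spot and background intensity of each probe in Cy5 and Cy3, and per the file headers were made with Agilent Feature Extraction 10.7.3.1. Median signals were used because mean spot signals were not among the columns. A log10 ratio, Cy5 over Cy3 after the scanner software's processing, is a further column per the file headers. The authors' own deposited values are log2 ratios, and both served as alternatives. How the authors normalized is not given in the sources used here, and per the submitters' processing notes limma was used. Adding quantile normalization between arrays to the steps below gave values that correlated with theirs at 0.9992 or more on each array. The main values here have no step between arrays.

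Intensities were corrected by normexp (offset 50) and loess with limma 3.58.1 in R 4.3.3, after which spots of a probe were averaged. The software's outlier flags were dropped, and none fell on the solute carrier probes used. Probe accessions were matched to RefSeq genes (Sscrofa11.1), which named 6700 of 43603 probes and 3029 genes. One limma model with 18 residual degrees of freedom was fitted to the 4 groups, with Benjamini-Hochberg adjustment across 24760 genes and a threshold of 0.05. The script was tested on simulated data. Figures were drawn with matplotlib 3.10.9.

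The solute carrier genes, the classes and the marker and transport lists were chosen with earlier results of these data known. Values are given for members past the threshold, up to 15 per direction for each drug and 8 for the other comparisons, for the measured classical carriers, and for 1 gene of any class without one. Some genes that are counted are not reported here by name, and figures leave them out. Alternatives changed the background correction, normalization, source of values, dim-probe filter, probe per gene, slide, scan day, samples in the fit and piglets left out. The number of arrays limits the precision.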

Additional observations from a re-analysis of the deposited data

Results flagged for a closer look

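Within the groups, 160 tests for a single piglet far from the rest were run on the named genes, of which chance marks about 1 in 20, and 3 stood out. SLC25A24 was at 1.12 in BUCY treated piglet 2, against -0.04 to 0.25 in the other treated piglets, and its call in the BUCY comparison was lost without that piglet. SLC27A2 was at -1.54 in DOX treated piglet 5, against -0.41 to 0.17 in the others. SLC5A1 was at -0.24 in DOX untreated piglet 2, against -1.02 to -0.79 in the rest.

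The BUCY and DOX differences themselves differed by limma's test in 6 of 67 genes (8.96%), against 5.88% of all genes. Drug and experiment cannot be told apart in this contrast. The contrast, BUCY minus DOX, was 1.09 for SLC35C1 and 0.70 for SLC11A2. It was -1.76 for SLC35F5, -1.69 for SLC46A1 and -1.10 for SLC22A13. The second SLC11A2 probe differed by -0.015 after BUCY and by -0.14 after DOX. Median centring in place of loess left none of the 6.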

How the results depend on the processing

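Of the called differences, 62 were followed gene by gene, and none of these changed sign in the 34 to 36 alternatives that gave it a value. The count of solute carrier genes after DOX (0) was 1 with scale normalization, 3 in the fit on the groups compared and 1 without BUCY treated piglets 2 and 3, and 0 to 0 with single piglets left out. The count after BUCY (28) was 12 with slide as a fixed block, 11 without the 6 arrays titled with a suffix, 2 in the fit on the groups compared, 3 without BUCY treated piglets 2 and 3, and 15 to 32 with single piglets left out (15 without BUCY treated piglet 2). The contrast of the drug differences (6) was 0 with median centring, 2 without the suffix arrays, 3 without BUCY treated piglets 2 and 3, and 3 to 18 with single piglets left out (18 without BUCY treated piglet 1, 3 without DOX treated piglet 3 or 6). The untreated comparison (33) was 18 with median centring and 26 to 37 with single piglets left out. Without BUCY treated piglets 2 and 3, all 29 of its calls followed gene by gene stayed. Further genes passed in that fit, among them SLC15A1, SLC5A11, SLC9A3R1 and SLC30A4, with 29.2% of all genes called. The causes were not tested. Shares of all genes are not given beside these counts, so a change in them need not be particular to solute carriers. No paired analysis was possible because each array title carries a number of its own animal and replicate numbers only follow the order of the arrays. Of 67 genes, 60 were well above background on all arrays, and 37 had more than 1 probe: the probes shared their sign in 17 of 17 called genes after BUCY and in 16 of 19 in the untreated comparison, with SLC5A10 and SLC38A6 among the exceptions.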
